A study of Mus musculus with 28 samples.

Results

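The genes described here are 10 markers of GABAergic interneurons among the 45513 genes counted in each library. They were chosen by name, from Gad1, Gad2, Slc32a1, Sst, Npy, Pvalb, Vip, Dlx1, Dlx2 and Dlx5, and all 10 were found in the count tables. The study sequenced ribosome footprints (the mRNA pieces that ribosomes shield from RNase) and fragmented poly(A)-selected mRNA, called total mRNA, from the same cultures, in order to find mRNAs whose translation responds to the RNA-binding protein TDP-43. The primary neurons came from cortex of E16 C57BL/6J embryos and were harvested at DIV14, after 0.5 µM of the antimitotic Ara-C on DIV4. There were 2 non-transgenic (WT) littermate cultures, replicates 2 and 3, and 3 cultures each of neurons hemizygous for human TDP-43 (hTDP-43) or for its patient mutant hTDP-43 A315T, replicates 1 to 3. Both transgenes are driven by the prion promoter, and the mutant protein carries a Flag tag. MN1 cells, a clonal hybrid of mouse spinal motor neurons and neuroblastoma at 10-12 passages, gave 2 cultures each after transfection with hTDP-43, its mutant hTDP-43 A315T or the GFP control. MN1 cells received 100 µg/ml cycloheximide for 3 min before lysis and neurons did not, so cell type and this treatment cannot be told apart. Every culture gave 1 library of each type, for 28 libraries in all. Whether replicates were separate litters is not given, so p-values measure the spread between these cultures only. The labels and methods do not say how many embryos went into a culture.

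GABAergic interneurons are the inhibitory neurons of the cortex. They make the transmitter GABA from glutamate with the glutamate decarboxylases GAD67 (Gad1) and GAD65 (Gad2) and load it into vesicles with the transporter VGAT (Slc32a1). Most are born in the ganglionic eminences of the ventral forebrain, where the Dlx homeobox factors direct their development, and then migrate into the cortex. Subtypes are told apart by the neuropeptides somatostatin (Sst), neuropeptide Y (Npy) and vasoactive intestinal peptide (Vip), or by the calcium-binding protein parvalbumin (Pvalb), which in mouse cortex appears only after birth. Striatal projection neurons are GABAergic too and use Gad1, Gad2, Slc32a1 and Dlx genes, so these are not markers of interneurons alone.

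Sst, Npy and Slc32a1 had the highest levels per length among the 10, and Vip is the remaining neuropeptide. The bases directly before their transcription starts are shown so that these control regions can be compared. Of the 10 genes, 9 had promoter windows in the RefSeq table for GRCm38.p6, and Dlx5 did not match. The windows shown are Sst at chr16:23890845-23890994 (minus strand), Npy at chr6:49822560-49822709 (plus strand), Vip at chr10:5639068-5639217 (plus strand) and Slc32a1 at chr2:158610608-158610757 (plus strand), each upstream of the first exon and each written 5′ to 3′ on the strand of its gene. Capitals mark matches to the cAMP response element TGACGTCA, to its shorter form TGACG and to the TATA core TATAAA, on either strand.
Sst: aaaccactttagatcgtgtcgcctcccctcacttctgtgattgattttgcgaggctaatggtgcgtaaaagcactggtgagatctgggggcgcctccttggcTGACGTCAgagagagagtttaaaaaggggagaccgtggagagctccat
Npy: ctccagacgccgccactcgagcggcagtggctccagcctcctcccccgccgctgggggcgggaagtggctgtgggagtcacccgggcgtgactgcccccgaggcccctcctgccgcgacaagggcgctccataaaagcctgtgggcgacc
Vip: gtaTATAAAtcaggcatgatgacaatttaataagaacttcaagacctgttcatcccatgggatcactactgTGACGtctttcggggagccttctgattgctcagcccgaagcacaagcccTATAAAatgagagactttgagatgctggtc
Slc32a1: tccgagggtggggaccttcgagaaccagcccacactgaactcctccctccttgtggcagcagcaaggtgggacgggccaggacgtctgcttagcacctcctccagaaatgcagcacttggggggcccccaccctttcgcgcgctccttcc

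The full element TGACGTCA occurred in the window of Sst alone, from 48 to 41 bases before the start. In the table, 1.55% of the 32851 promoters held it within 250 bases before the start. The shorter TGACG, which is also part of the full element, was found before Sst, Vip, Gad2 and Dlx2, against 17.8% of all promoters. TATAAA occurred before Vip, at 157, 147 and 30 bases from the start, and on the reverse strand before Gad1, against 12.4%. TAATTA, a core letter string of homeodomain sites, was in none of the windows of these genes and in 4.84% of all promoters. These are matches of letters and not measured binding sites.

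Values are CPM, read counts relative to library size, on the TMM scale, a correction of library size that evens out the bulk of genes. Reads assigned to genes ranged from 166064 to 2528820 in neuron footprint libraries and from 600385 to 6969578 in neuron total mRNA libraries. In MN1 cells they ranged from 332370 to 1219222 and from 1328528 to 2988339. The shallowest footprint libraries were hTDP-43 replicates 2 and 3, where Vip, Dlx2 and Dlx5 rested on 3 to 6 reads each. Some libraries stood apart: Lars2 (mitochondrial leucyl-tRNA synthetase) held 18.8% of the total mRNA reads of WT replicate 3 and 14.1% of hTDP-43 replicate 3, against a median of 5.84% over the neuron total mRNA libraries. In the same 2 libraries Adarb2, an RNA-editing family gene of interneurons, stood at 857 and 409 CPM, against 45.2 to 90.1 CPM in the other 6.

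Gad1 had the higher CPM of the glutamate decarboxylase mRNAs. Its footprints stood at 585 and 545 CPM in WT replicates 2 and 3, at 814, 548 and 559 CPM in hTDP-43 replicates 1 to 3, and at 555, 549 and 369 CPM in hTDP-43 A315T replicates 1 to 3. In total mRNA it stood, in the same order, at 320.0 and 274 CPM, at 430.0, 238 and 294 CPM, and at 349.5, 290.3 and 194 CPM. hTDP-43 replicate 1 was the highest and hTDP-43 A315T replicate 3 the lowest library in both library types, and the genotypes overlapped. Gad2, whose product makes GABA mainly at nerve terminals, had footprints of 334 and 327 CPM in WT, 461, 246 and 334 CPM in hTDP-43, and 386, 339 and 234 CPM in hTDP-43 A315T. Its total mRNA stood at 133 and 236 CPM, at 273, 125 and 169.7 CPM, and at 262, 163 and 102 CPM. Replicate 1 was the highest culture of both transgenic groups for Gad2 in both library types. The ratio of Gad1 to Gad2 CPM lay between 1.44 and 2.23 in footprints and between 1.16 and 2.40 in total mRNA. By CPM, which is not corrected for length, Gad1 was thus above Gad2 in all 16 neuron libraries. Per kilobase of exon, Gad2 was the higher in total mRNA of WT replicate 3 (40.2 against 35.9 CPM per kb).

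Slc32a1, the vesicular GABA transporter, had footprints of 367 and 347 CPM in WT, 354, 195 and 314.7 CPM in hTDP-43, and 339, 378 and 299.7 CPM in hTDP-43 A315T. In total mRNA it stood at 269 and 141 CPM, at 274, 207 and 182 CPM, and at 226, 214 and 191 CPM. The low footprint value of hTDP-43 replicate 2 rested on 38 reads, and the low mRNA value belonged to WT replicate 3. Of the exon length of Slc32a1, 24.9% is shared with the antisense gene Gm14205, and reads there were assigned to neither gene, so its level per length is understated.

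Sst was the most abundant of the 10 genes in footprints, at 624 and 1203 CPM in WT, 838, 476 and 713 CPM in hTDP-43, and 623, 672 and 794 CPM in hTDP-43 A315T. In total mRNA it stood at 399 and 219 CPM, at 348, 244 and 179.7 CPM, and at 213, 278 and 318 CPM. WT replicate 3 was thus the highest library in footprints, while WT replicate 2 was the highest in total mRNA. Npy, which many Sst cells also make, gave footprints of 107 and 213 CPM in WT, 119.6, 56.3 and 148 CPM in hTDP-43, and 89.1, 109 and 127 CPM in hTDP-43 A315T. Its total mRNA stood at 65.4 and 51.9 CPM, at 59.9, 39.5 and 27.9 CPM, and at 29.3, 64.3 and 49.9 CPM. Sst stood above Npy by 4.83 to 8.46 times in footprints and by 4.22 to 7.27 times in total mRNA. Vip, a peptide of interneurons that mostly inhibit other interneurons, was lower, with footprints of 39.7 and 52.8 CPM in WT, 52.9, 30.7 and 19.3 CPM in hTDP-43, and 42.0, 37.0 and 26.1 CPM in hTDP-43 A315T. In total mRNA Vip stood at 23.2 and 16.8 CPM, at 19.5, 10.3 and 5.99 CPM, and at 15.2, 13.2 and 7.16 CPM.

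Pvalb was at or near 0 throughout. In footprints it had 1 read in hTDP-43 replicate 1 and 0 reads in the other 7 neuron libraries, where 3 reads would correspond to between 1.19 and 18.1 CPM. In total mRNA it had 4 reads in hTDP-43 replicate 1, 1 read each in 4 libraries and 0 in 3. Pvalb did not pass the filter on low counts in any comparison.

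The Dlx factors were detected in every neuron library. Dlx1 footprints stood at 58.4 and 58.0 CPM in WT, 52.0, 30.7 and 51.4 CPM in hTDP-43, and 55.0, 34.9 and 42.2 CPM in hTDP-43 A315T. Dlx1 total mRNA was higher than its footprints in each culture, at 109 and 78.6 CPM, at 129, 106 and 81.9 CPM, and at 126, 96.1 and 89.8 CPM. Dlx2 was nearly level, with footprints between 17.6 and 22.1 CPM and total mRNA between 13.2 and 21.2 CPM. Dlx5 footprints ranged from 15.4 to 40.4 CPM and its total mRNA from 7.67 to 14.8 CPM. Dlx1 and Dlx2 lie side by side on chromosome 2 of GRCm38, at 71528113-71533981 on the plus strand and at 71543408-71546754 on the minus strand. Dlx1 shares 335 exon bases, 6.21% of its exon length, with the antisense gene Dlx1as. Counting was without strand and reads there were assigned to neither gene, so the level of Dlx1 per length is understated. To Dlx1as itself 22 reads in total mRNA and 13 in footprints were assigned.

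**Figure D1:**
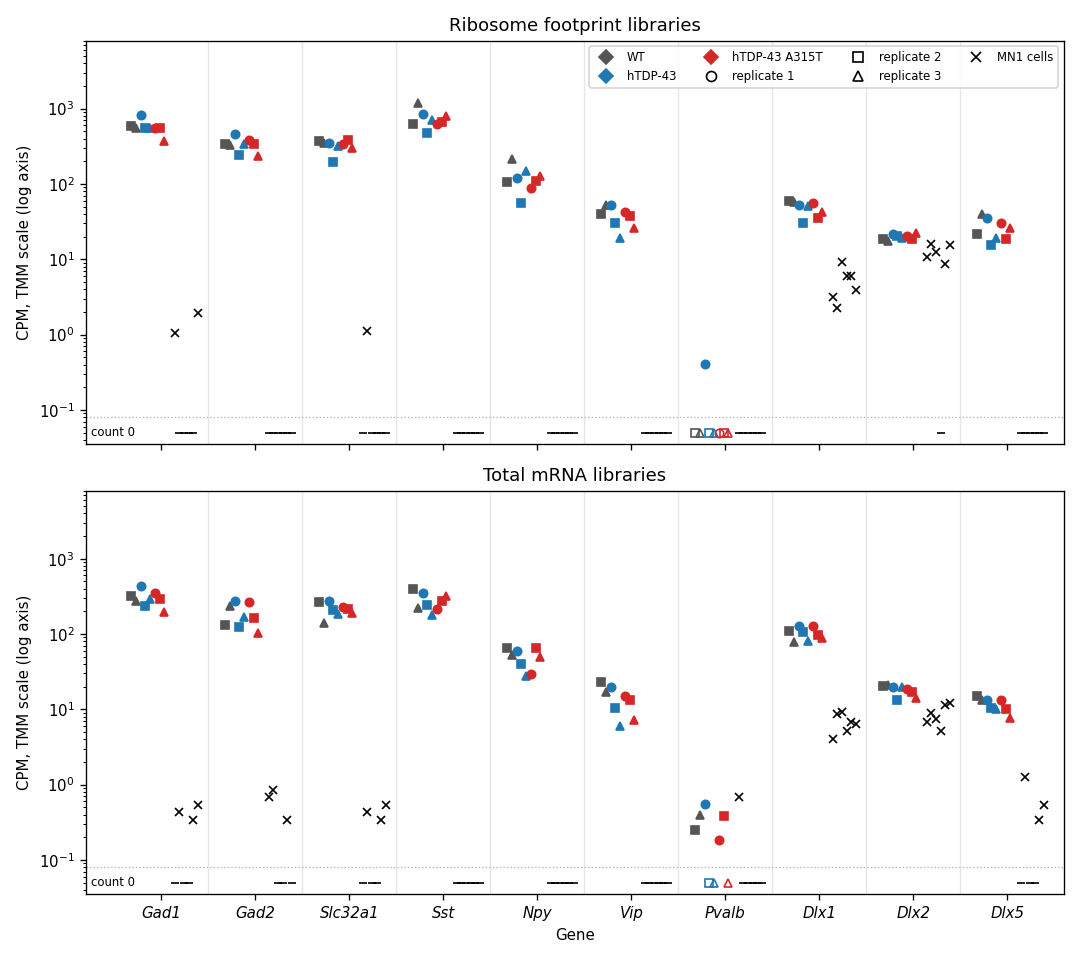
CPM of the 10 genes in each library, on a log axis, with ribosome footprints above and total mRNA below; colours give the genotype, shapes the replicate, crosses the 6 MN1 libraries, and marks under the dotted line are libraries with 0 reads. Sst reaches 1203 CPM in footprints of WT replicate 3, Pvalb stays at 0 to 4 reads, and Dlx1 and Dlx2 are the members with reads in nearly all MN1 libraries.

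Per kilobase of exon, the footprint levels of the 8 neuron libraries fell in the order Sst (1240.0 ± 362 CPM per kb, SD), Npy (214 ± 81.0), Slc32a1 (116 ± 20.9), Gad1 (74.0 ± 15.8), Gad2 (56.6 ± 12.3), Vip (24.6 ± 7.83), Dlx5 (18.2 ± 6.20), Dlx1 (8.87 ± 1.97) and Dlx2 (6.93 ± 0.533). Neighbours in this order kept it in all 8 libraries except for Slc32a1 over Gad1 (7 of 8), Vip over Dlx5 (6 of 8) and Dlx1 over Dlx2 (6 of 8). In total mRNA Dlx1 moved up, to 18.9 ± 3.52 CPM per kb, between Gad2 (31.2 ± 11.2) and Vip (9.12 ± 3.90), and stood in that place in all 8 libraries against Vip. Sst led there too, at 459 ± 126 CPM per kb, followed by Npy (85.7 ± 26.3) and Slc32a1 (76.1 ± 15.9), which did not separate beyond their spread (Npy higher in 5 of 8 libraries). Vip and Dlx5 (8.13 ± 1.69) did not separate in total mRNA either, with Vip higher in 5 of 8. Gad1 (39.1 ± 9.33) lay above Gad2 in 7 of 8 total mRNA libraries.

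MN1 cells served as a contrast without interneurons. Sst, Npy and Vip had 0 reads in all 12 MN1 libraries. The folds and ratios of this paragraph come from reads pooled over the libraries of a type, without TMM scaling. The deep neuron libraries of replicate 1 therefore weighed most in them. Against a floor of 3 reads over the 6 libraries of a type (0.667 CPM in footprints and 0.256 CPM in total mRNA), Sst was at least 1121-fold higher in neuron footprints and at least 1194-fold higher in neuron total mRNA. Npy was at least 173-fold and 206-fold higher, and Vip at least 64.4-fold and 63.8-fold higher. Gad2 and Dlx5 had 0 reads in MN1 footprints and were at least 561-fold and 44.2-fold higher in neurons. The genes with a few MN1 reads gave ratios with wide counting intervals, which cover counting error only. Gad1, with 3 reads in MN1 total mRNA, was 1302-fold higher in neurons (95% exact interval 446 to 6317), and Slc32a1, also with 3 reads, 917-fold (314 to 4446). Gad2 total mRNA, with 4 reads, was 611-fold higher (239 to 2243) and Dlx5, with 5 reads, 29.3-fold (12.4 to 90.7). Pvalb, with 1 read in MN1 cells, was at or under the floor in both cell types in footprints and gave no fold there.

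Dlx1 and Dlx2 had reads in nearly all MN1 libraries. Dlx2 had footprints at 10.5 ± 5.83 CPM (SD, n = 6; 0 to 14 reads) in MN1 cells against 19.8 ± 1.52 CPM (n = 8) in neurons, and total mRNA at 8.65 ± 2.69 against 18.0 ± 3.00 CPM. Dlx1 stood at 5.12 ± 2.56 against 47.9 ± 10.6 CPM in footprints and at 6.71 ± 1.95 against 102 ± 19.0 CPM in total mRNA. In edgeR's quasi-likelihood test over all genes, with Benjamini-Hochberg adjustment, Dlx1 was higher in neurons by 3.58 ± 0.26 (log2, SE) in footprints (adjusted p = 7.8e-12) and by 4.33 ± 0.21 in total mRNA (adjusted p = 8.5e-11). Dlx2 was higher by 1.17 ± 0.28 (adjusted p = 5.7e-04) and by 1.56 ± 0.19 (adjusted p = 1.9e-06). In footprints all 9 genes tested passed the filter on low counts only through the neurons, and in total mRNA all but Dlx2 did. The count of genes called and the adjusted p of those genes are thus no support. The same test called 82.9% of the genes in footprints (44% higher in neurons) and 81.8% in total mRNA (42.7% higher in neurons). Among the transfections of MN1 cells, Dlx2 footprints and Dlx1 and Dlx2 total mRNA all had adjusted p of 1.0 in edgeR, which called 0% and 0.0195% of genes, and DESeq2 called none of them.

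The defining motor neuron genes of MN1 cells were present in part. The transcription factor Isl1 stood at 43.5 ± 5.96 CPM and the vesicular acetylcholine transporter Slc18a3 at 23.1 ± 6.24 CPM in MN1 footprints. Mnx1 had 0 to 1 footprint reads and Chat, the enzyme of acetylcholine synthesis, 0 to 3 in each library.

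The genotype comparisons ask whether human TDP-43 or its mutant is accompanied by a different interneuron content. In bulk cultures, fewer cells of a type and less RNA per cell cannot be told apart. Each pair of genotypes was compared separately in footprints and in total mRNA with edgeR's quasi-likelihood test. Of the 9 genes tested, 0 were called in each of the 6 comparisons, and 0% of all genes tested were called in each. At an unadjusted p below 0.05, the 6 comparisons held 1 member among them: Gad1 footprints, lower by 0.41 ± 0.19 on the log2 scale in hTDP-43 A315T than in hTDP-43 (log2 difference -0.41, 95% interval -0.82 to -0.0013, adjusted p = 1.0 in edgeR). In that comparison edgeR gave 217 of 8367 genes an unadjusted p below 0.05. DESeq2 called 0 members in all 6 as well, with 1 at an unadjusted p below 0.05. It fell in the same comparison, against 42 of 8367 genes. A block for the replicate number gave calls of 5, 8, 15, 20, 35 and 0 genes in the 6 comparisons, and 0 of them were members. With this block 3, 1, 1, 3, 0 and 0 members had an unadjusted p below 0.05, in the same order. The 3 in each library type belonged to hTDP-43 against WT, against 523 of 8117 genes in footprints and 706 of 11828 in total mRNA. The other 2 footprint comparisons, with 1 member each, had 613 of 9510 and 422 of 8367 genes.

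The widest differences belonged to neuropeptides. Npy footprints averaged 159.8 ± 74.97 CPM (SD, n = 2) in WT, 108 ± 46.8 CPM (n = 3) in hTDP-43 and 108 ± 18.8 CPM (n = 3) in hTDP-43 A315T, and the groups overlapped. The log2 differences from WT were -0.46 ± 0.29 (SE) for hTDP-43 and -0.53 ± 0.27 for the mutant. For Sst footprints they were -0.41 ± 0.26 and -0.39 ± 0.24. All 4 values rested on WT replicate 3 and turned to 0.053, 0.0011, 0.13 and 0.16 without it, in the same order. That library also had the highest summed level of vascular and fibroblast markers (42.2 CPM in footprints, against a median of 16.5), and the part of this in the result was not tested. Vip total mRNA was at -0.76 ± 0.38 in hTDP-43 A315T against WT (95% interval -1.66 to 0.13). Both transgenic groups were set against the same WT cultures. They include replicate 1 and WT does not, so genotype and replicate number are partly mixed in comparisons against WT.

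The intervals show what these cultures could have missed. Over the 9 genes, log2 differences from WT in footprints lay between -0.46 and 0.21 for hTDP-43 and between -0.53 and 0.16 for hTDP-43 A315T. In total mRNA they lay between -0.57 and 0.19 and between -0.76 and 0.14. The 95% intervals of single genes against WT reached from -1.12 to 0.98 in footprints and from -1.66 to 0.92 in total mRNA. In footprints the GABA synthesis genes had the narrower ones. Gad1 footprints averaged 565 ± 28.3 CPM in WT, 640.3 ± 151 CPM in hTDP-43 and 491 ± 105.5 CPM in hTDP-43 A315T. Slc32a1 footprints averaged 357 ± 14.7, 288 ± 83.2 and 339 ± 39.3 CPM.

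**Figure D2:**
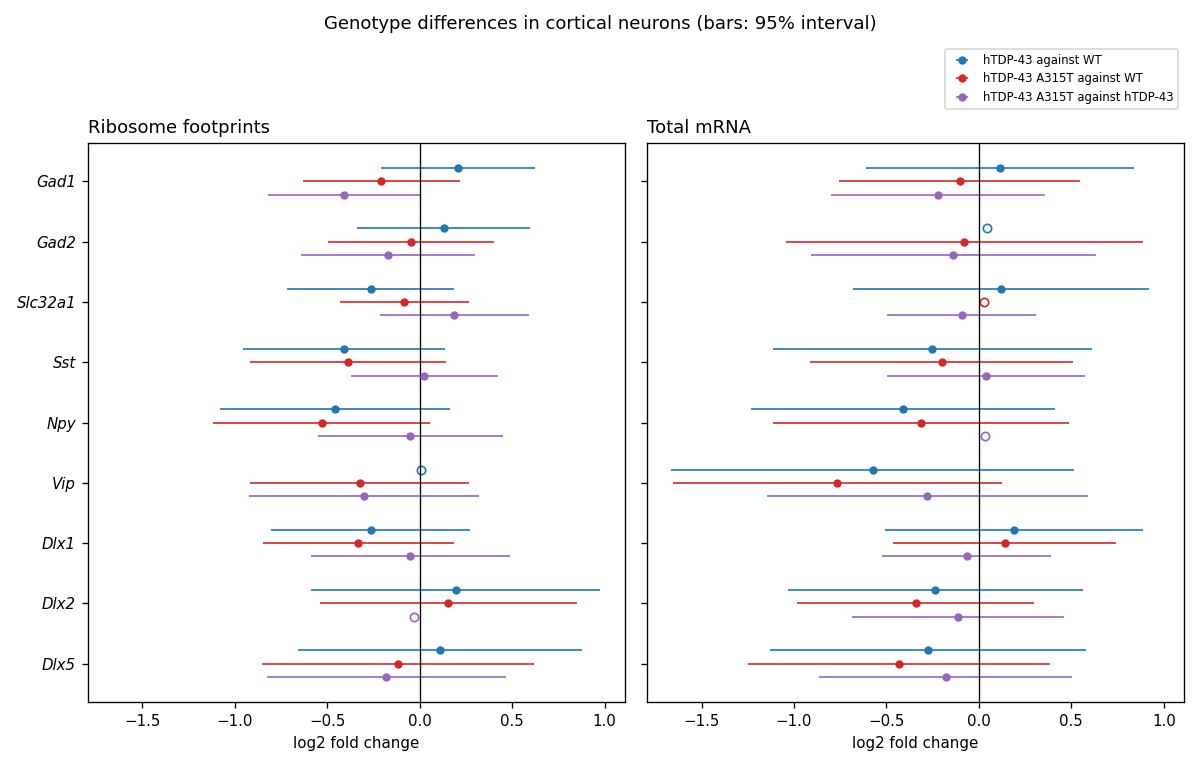
Log2 fold changes between genotypes for the 9 genes tested, in footprints (left) and total mRNA (right), with 95% intervals from edgeR as bars; open circles are values with p above 0.9, drawn with no interval. All intervals but the one of Gad1 footprints between mutant and hTDP-43 cultures include 0.

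Replicates 1, 2 and 3 of the neurons carry the dates 17 June, 16 July and 29 July in their titles. The labels do not say which step a date marks, and it is shared by all cultures of a number. The dates were compared in a model with genotype as a term, since no WT culture has the first date. In footprints 0 of the 9 genes tested were called among dates, against 2.36% of all genes, and 5 (Gad1, Gad2, Sst, Npy and Dlx5) had an unadjusted p below 0.05, against 13.5% of all genes. In total mRNA 0 of 9 were called, against 0.0733% of all genes, and 3 (Gad1, Gad2 and Vip) had an unadjusted p below 0.05, against 8.09%. DESeq2's likelihood ratio test also called 0 members in both library types, with 4 and 2 at an unadjusted p below 0.05. Over all genes it gave 358 of 9212 in footprints and 798 of 12277 in total mRNA at that threshold.

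Gad2 was the member with a call between single dates. Its cultures of 17 June (461 and 386 CPM in footprints, 273 and 262 CPM in total mRNA) lay above all 6 later cultures in both library types. In footprints the log2 difference was -0.49 ± 0.17 (SE) from the first to the second date and -0.62 ± 0.17 from the first to the third (adjusted p = 0.048 in edgeR, with 2.61% of all genes called in that contrast). Over the 3 contrasts in both library types it was the only call of a member. It was lost with DESeq2 (adjusted p = 0.64), without the genotype term (adjusted p = 0.073) and on leaving out any single library other than hTDP-43 A315T replicate 2. Over the leave-outs the log2 difference lay between -0.78 and -0.42. In total mRNA the Gad2 differences were -1.04 ± 0.30 and -0.84 ± 0.32, neither called (0.00815% of all genes in each contrast).

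Gad1 gave values of the same sign. Its footprint differences from the first date were -0.31 ± 0.15 and -0.54 ± 0.15 (adjusted p = 0.59 and 0.063, edgeR), and its total mRNA differences -0.53 ± 0.24 and -0.71 ± 0.24. Its 2 cultures of the first date lay above the 6 later ones in total mRNA but not in footprints. Slc32a1 footprints differed by -0.20 ± 0.18 and -0.24 ± 0.17. Vip total mRNA was at -1.23 ± 0.37 from 17 June to 29 July (adjusted p = 0.94, edgeR). Of the 29 July libraries, hTDP-43 replicate 3 held only 3 Vip reads.

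Sst and Npy followed another order in footprints. All 3 cultures of 29 July (713 to 1203 CPM for Sst, 127 to 213 CPM for Npy) lay above all 3 of 16 July (476 to 672 and 56.3 to 109 CPM). The log2 differences between these dates were 0.59 ± 0.16 for Sst (adjusted p = 0.15, edgeR) and 0.77 ± 0.19 for Npy (adjusted p = 0.12), and 0.304% of all genes were called in this contrast. In total mRNA the same contrasts had the other sign, at -0.33 ± 0.29 and -0.34 ± 0.33, neither called (0.0326% of all genes), and the dates overlapped. Without a filter on low counts, and without hTDP-43 A315T replicate 2, the test among dates called 4 members in footprints (Gad1, Gad2, Sst and Npy), against 1.84% and 2.79% of all genes in these fits. In total mRNA it called Gad2 without the filter, against 1.61% of all genes. Without hTDP-43 A315T replicate 3 it called 3 of 9 members (Gad2, Slc32a1 and Sst), but also 24.0% of all genes.

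The striatal projection neuron markers, a list of 10 genes with Ppp1r1b (DARPP-32) and Adora2a among its most abundant, were also highest on the first date in total mRNA. Their summed level in total mRNA was 498 and 480.0 CPM on the first date, 373 to 458 CPM on the second and 256 to 359 CPM on the third. In footprints it was 411 and 391 CPM, 307 to 362 CPM and 255 to 405 CPM. None of the 10 was at 0 in all neuron libraries, Isl1 also stands in the motor neuron list, and 0 of the 8 tested in footprints and 0 of the 10 tested in total mRNA were called among dates (2 and 3 at an unadjusted p below 0.05). The libraries of the first date were also the deepest of their type. The part of these in the values of Gad1 and Gad2 was not tested.

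**Figure D3:**
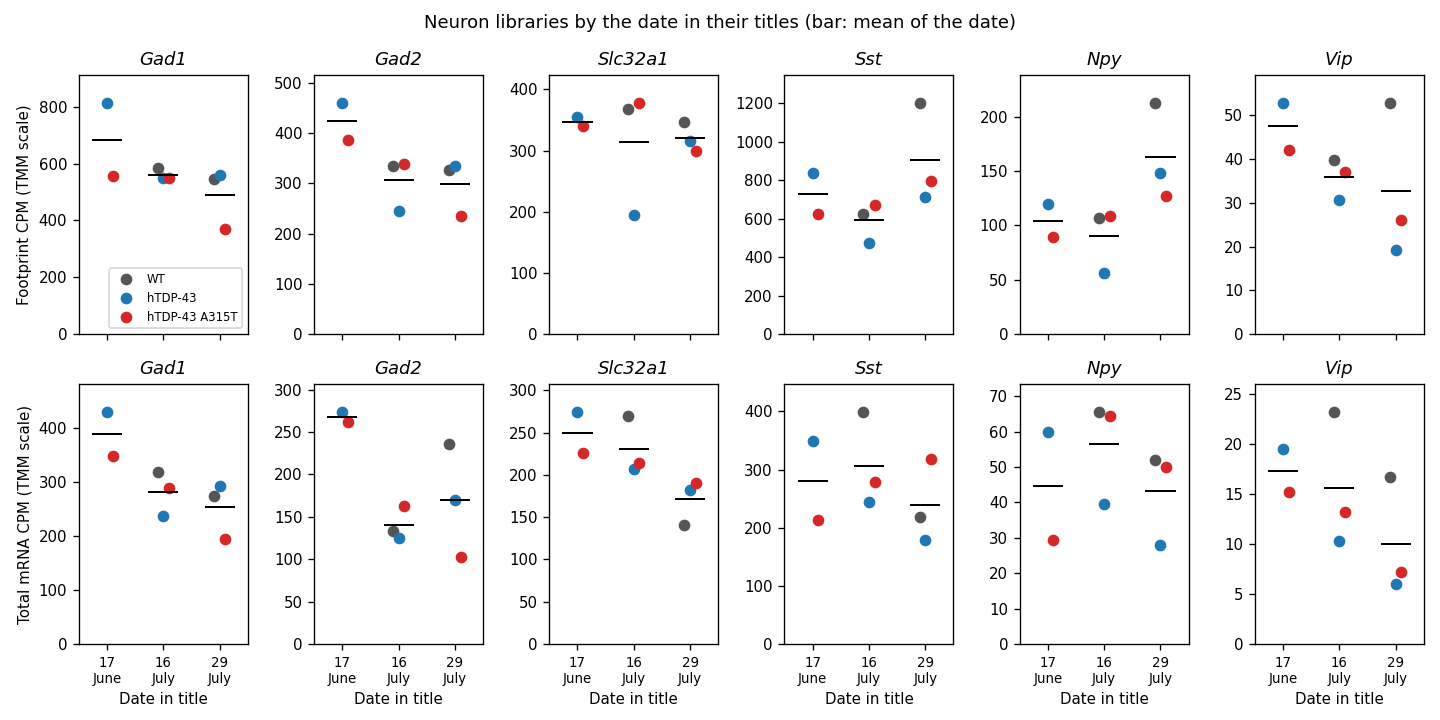
CPM of 6 genes in each neuron library by the date in its title, with footprints above and total mRNA below; points are cultures coloured by genotype and bars are the means of each date. Gad2 is highest in the 2 cultures of 17 June in both library types, and Sst and Npy footprints on 29 July lie above those on 16 July.

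Other interneuron genes were tested in the same fits. Among 20 other subtype genes, 18 were tested in footprints and 5 were called among dates, against 2.36% of all genes: Reln, Penk, Calb2, Lamp5 and Adarb2. Reln (reelin, a secreted matrix protein of Cajal-Retzius cells and some interneurons) stood at 1320.0 ± 135 CPM (SD, n = 2) on the first date and at 799 ± 131 and 935 ± 139.5 CPM (n = 3 each) on the later ones. Penk (proenkephalin, a peptide precursor also made by striatal neurons) stood at 254 ± 17.6, 179.8 ± 36.1 and 116 ± 32.4 CPM. Calb2 (calretinin, a calcium-binding protein) rose from 49.1 ± 1.08 CPM to 91.2 ± 8.25 CPM on the second date and stood at 81.7 ± 13.0 CPM on the third. Lamp5 stood at 12.5 ± 0.266, 34.8 ± 9.94 and 15.2 ± 9.17 CPM. Adarb2 stood at 278 ± 99.2, 203 ± 34.4 and 198 ± 58.4 CPM. Of these, the first date differed by an adjusted p below 0.05 from the second for Reln (-0.83 ± 0.15, log2) and Calb2 (0.93 ± 0.21), and from the third for Penk (-1.31 ± 0.19), Reln (-0.57 ± 0.15) and Adarb2 (-0.67 ± 0.16). In total mRNA 0 of 19 were called in edgeR (9 at an unadjusted p below 0.05, against 8.09% of all genes). Of 10 excitatory neuron markers, Nrgn (neurogranin) was called in footprints, higher on the second date than on the first by 0.82 ± 0.16.

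The lists around the members held, in neuron total mRNA, several abundant genes. Slc38a1 (a glutamine transporter) stood at 237 ± 41.7 CPM (SD, n = 8) and Abat (GABA transaminase) at 185 ± 36.8 CPM. Both Slc38a1 (288 ± 13.9 CPM) and Abat (41.1 ± 4.63 CPM) were present in MN1 cells too. The interneuron transcription factors were led by Satb1 (129 ± 23.4 CPM) and Lhx6 (91.9 ± 17.3 CPM), a factor of Sst and Pvalb cells. The other subtype genes were led by Cnr1 (375 ± 116 CPM), Reln (353 ± 133 CPM) and Kcnc1 (221 ± 32.1 CPM). Of these factors and subtype genes, Cnr1 (225 ± 24.3 CPM) and Satb1 (85.6 ± 9.80 CPM) were also abundant in MN1 total mRNA. Lhx6 (13.05 ± 9.34 CPM), Kcnc1 (7.825 ± 1.73 CPM) and Reln (0.499 ± 0.503 CPM) were lower there. Among dates, 0 of the 5 tested genes of GABA reuptake and catabolism were called by edgeR in either library type (0 at an unadjusted p below 0.05 in footprints and 1 in total mRNA). Of the transcription factors, 0 of 12 tested in footprints and 0 of 14 in total mRNA were called (2 and 1 at an unadjusted p below 0.05).

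The makeup of the cultures was checked with markers of other cells. Excitatory markers, led by Slc17a7 (774 ± 169 CPM), Camk2a (757 ± 158 CPM) and Nrgn (508 ± 211 CPM), summed to 1531 to 3175 CPM in total mRNA and 1683 to 2601 CPM in footprints, with the lowest value of both types in WT replicate 3. The summed CPM of Gad1, Gad2 and Slc32a1 was 0.18 to 0.425 times the excitatory sum in total mRNA and 0.392 to 0.842 times in footprints. Pan-neuronal genes, led by Syp (951 ± 94.2 CPM), Tubb3 (941 ± 161 CPM) and Stmn2 (780.0 ± 140.0 CPM), summed to 4627 to 5080.0 CPM in total mRNA. Astrocyte markers, led by Slc1a3, Aldoc and Aldh1l1, summed to 59.1 to 139 CPM, and oligodendrocyte lineage markers, led by Mbp, Olig1 and Olig2, to 49.9 to 108 CPM. Vascular and fibroblast markers, led by Col1a2, Dcn and Col1a1, summed to 4.45 to 30.7 CPM, and the 6 microglia markers, led by Aif1, Cx3cr1 and Csf1r, to at most 3.19 CPM. Motor neuron markers, led by Isl1, Slc18a3 and Slc5a7, summed to 4.69 to 10.8 CPM in neurons and to 64.9 to 92.3 CPM in MN1 cells.

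**Figure D4:**
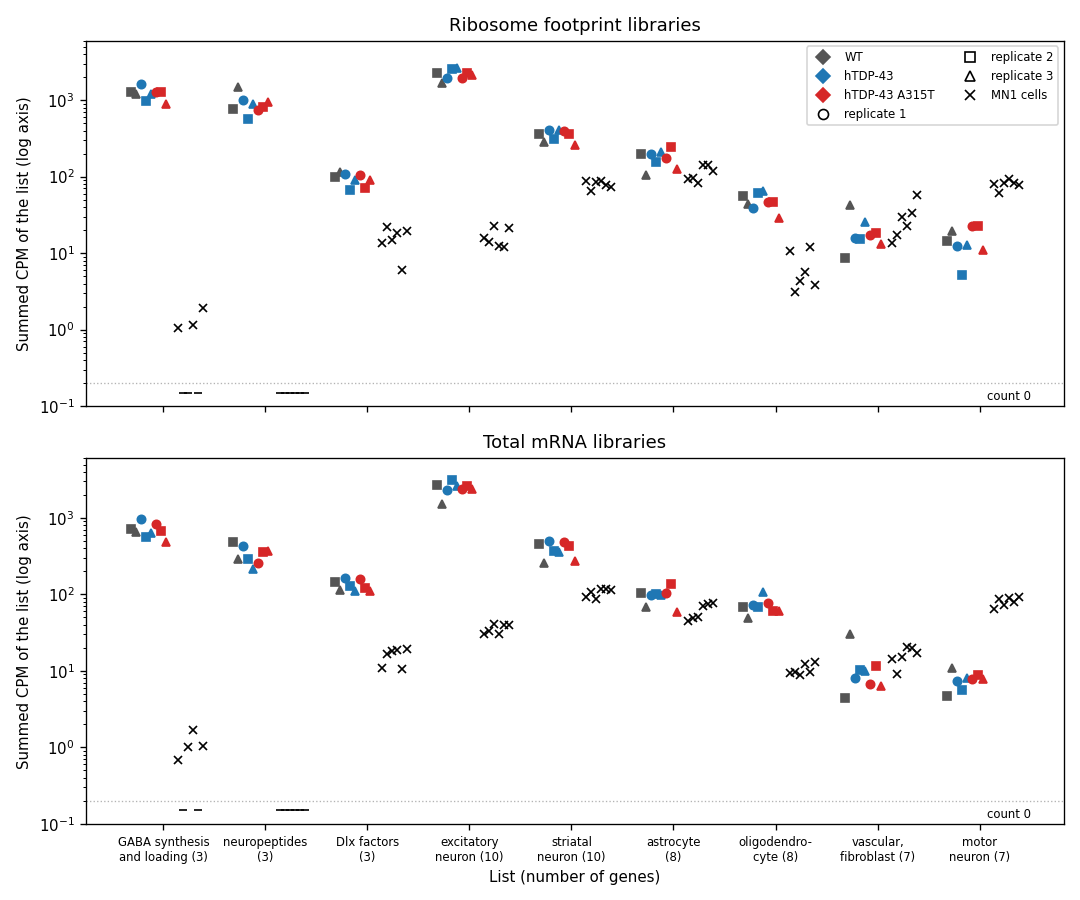
Summed CPM of marker lists in each library on a log axis, with footprints above and total mRNA below; colours give the genotype, shapes the replicate and crosses the MN1 libraries, and the number of genes in each list is in brackets. GABA synthesis genes sum to 903 to 1629 CPM in neuron footprints and to at most 1.93 CPM in MN1 footprints.

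Footprints were then set against total mRNA of the same neurons, a measure of how densely an mRNA is covered by ribosomes relative to the average gene. Of the 9 genes tested, 8 were called in edgeR's test, 7 higher and 1 lower in footprints. Over all genes 59.4% were called, 27.6% higher and 31.8% lower, with a median of -0.046 (log2). All 3 neuropeptides were higher in footprints, Vip by 1.38 ± 0.22 (log2, SE), Sst by 1.35 ± 0.17 and Npy by 1.198 ± 0.20. Dlx5 was higher by 1.16 ± 0.19. The GABA synthesis and loading genes were higher by smaller values, Gad1 by 0.84 ± 0.15, Gad2 by 0.79 ± 0.20 and Slc32a1 by 0.54 ± 0.14. Dlx1 was lower, at -1.12 ± 0.14, and Dlx2 stood at 0.08 ± 0.15 (adjusted p = 0.66). The adjusted p of the 8 called genes lay between 1.7e-06 (Sst) and 0.0027 (Slc32a1).

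The cultures showed these values one by one. In single cultures the log2 ratio of footprint to total mRNA CPM of Dlx1 lay between -1.79 and -0.44 and was below 0 in 8 of 8. That of Vip lay between 0.77 and 1.87, that of Gad1 between 0.67 and 1.203 and that of Gad2 between 0.47 and 1.33, all above 0 in 8 of 8. The Vip ratio of hTDP-43 replicate 3 rested on 3 reads of each type. Sst ranged more widely, from 0.65 in WT replicate 2 to 2.46 in WT replicate 3, and Npy from 0.51 in hTDP-43 replicate 2 to 2.40 in hTDP-43 replicate 3. The lowest Npy ratio rested on 11 footprint and 42 total mRNA reads, and the highest on 23 and 14. For both Sst and Npy the 2 highest ratios were those of WT and hTDP-43 replicate 3, the libraries where Lars2 took the largest share of total mRNA reads. The part of this was not tested. Slc32a1 was above 0 in 7 of 8 cultures and Dlx2 in 5 of 8. The same 8-gene count was found under every alternative run, leave-outs of single cultures included.

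Footprints fall mainly on coding sequence and fragmented mRNA on the whole exon length, so the coding share of each gene is given beside its value. It is the part of the counted exons that GENCODE M21 annotates as coding, on GRCm38. It was lowest for Dlx1, at 14.2%, the gene that was lower in footprints. It was 23.7% for Gad1, 29.9% for Gad2, 33.6% for Vip, 34.9% for Dlx2, 51.4% for Npy, 56.3% for Slc32a1, 58.1% for Sst and 60.9% for Dlx5, against a median of 38.1% over 10228 genes. Vip and Dlx2 had nearly the same coding share and stood at 1.38 and 0.08 in the footprint to mRNA difference. Genes of the same decile by coding share as Dlx1 had a median difference of -0.38, and those in the decile of Dlx5 0.15. The medians were -0.19 and -0.12 in the deciles of Gad1 and Gad2, both higher in footprints. They were 0.13 in the decile of Sst, Npy and Slc32a1 and -0.029 in that of Vip and Dlx2. Across the genes with an annotated coding share, which are not independent replicates, coding share and the difference had a Pearson r of 0.193. Only total mRNA was selected by its poly(A) tail, a step whose part in these values was not tested.

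**Figure D5:**
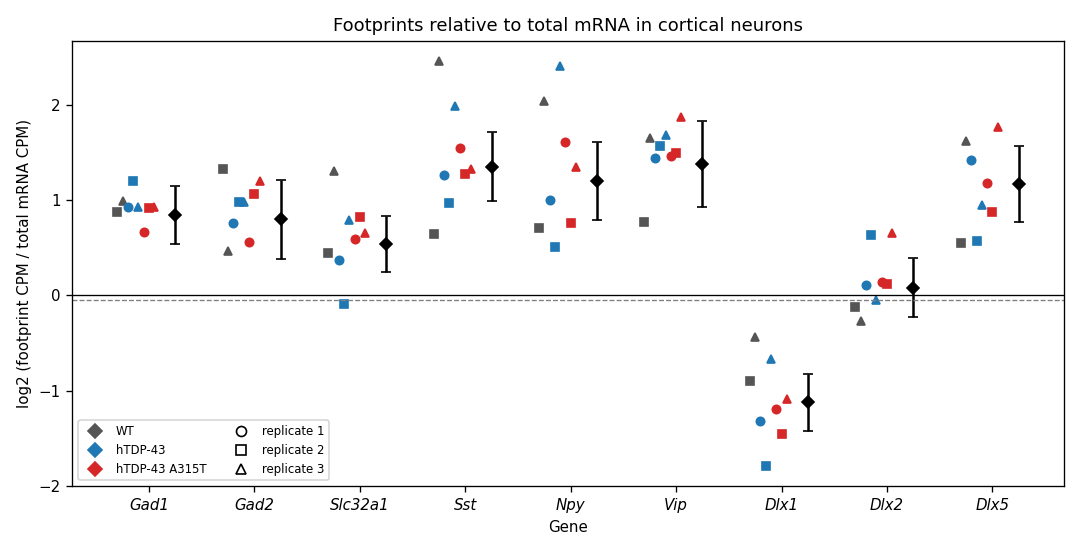
Log2 ratio of footprint CPM to total mRNA CPM for the 9 genes tested in each neuron culture (colours give the genotype, shapes the replicate), with the edgeR estimate and its 95% interval as a black diamond and bar; the dashed line is the median of all genes at -0.046. Dlx1 lies below 0 and Gad1, Gad2, Sst, Npy, Vip and Dlx5 above 0 in all 8 cultures.

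Whether the footprint to mRNA difference depended on genotype was tested as an interaction in 1 model. Of the 9 genes 0 were called in edgeR, against 0% of all genes, and 0 had an unadjusted p below 0.05, with the lowest at 0.38 (Dlx1). DESeq2 called 0 as well. Among the other lists, 10 of 19 tested subtype genes were higher and 3 lower in footprints (median 0.73), 7 of 8 pan-neuronal genes were higher and 1 lower (median 0.77), and 4 of 10 excitatory markers were higher and 2 lower (median -0.018). Of the 13 interneuron transcription factors tested, 0 were higher and 2 lower, with a median of 0.07.

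The genes most like the GABA synthesis set in their pattern over the 8 neuron total mRNA libraries were sought by Pearson's r. It was taken with the mean standardised log2 CPM of Gad1, Gad2 and Slc32a1, among 10239 genes. The set did not share 1 pattern, since Gad2 and Slc32a1 correlated at 0.034 in total mRNA. Gad1 followed the mean most closely (r = 0.981), ahead of Gad2 (0.761) and Slc32a1 (0.664). Abat, which breaks GABA down, came first (r = 0.986, and 0.797 in footprints), followed by Zfp664 (0.97 and -0.28), Rin1 (0.967 and 0.517) and Nptx2 (0.963 and 0.836), a synaptic pentraxin. Srsf1 (0.954), Syt1 (0.95), Nt5dc3 (0.948), Sdha (0.929) and Ppp1r2 (0.926) had lower values. In footprints these 5 had r from -6.9e-05 (Syt1) to 0.605 (Sdha). Of the members outside the set, Dlx1 had r = 0.755, Dlx5 0.725, Vip 0.653, Dlx2 0.567, Sst 0.211 and Npy 0.09. Outside the set, 143 genes had a higher r than Dlx1 and 4752 a higher r than Npy. The points share libraries, depth and date, and the values are descriptions without a test.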

How the data were processed

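The deposited tables hold unnormalized read counts of 28 libraries, for 45513 Ensembl genes, of which 44585 matched a symbol. The authors kept reads in which cutadapt 1.8.1 found an adapter, removed reads that Bowtie2 placed on non-coding RNA, aligned the rest to GRCm38 with TopHat2 and counted them on exons with featureCounts 1.4.4, without strand and without reads on more than 1 gene. Columns of these tables hold nothing else that was used apart from gene identifiers and exon lengths. No pair of libraries had identical counts.

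Counts were tested in R 4.3.3 with edgeR 4.0.16 (quasi-likelihood F-test) over all genes passing filterByExpr (minimum count 10, minimum total 15), with TMM scaling, Benjamini-Hochberg adjustment over all genes tested and a threshold of 0.05. Each genotype comparison used only the libraries of its 2 groups. The scripts were tested on simulated data. SEs are not given where p was above 0.9. DESeq2 1.42.0, its size factors, no filter, the replicate number as a block and leaving out each library were tried as alternatives. The study used DESeq, which was not used here.

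Libraries of the same replicate number share a title date, which pairs them. The exception is the GFP footprint library of MN1 replicate 1, whose title gives the same day and month but the year 2016 in place of 2015. The deviations of same-numbered libraries from their group means correlated across genes at 0.296 to 0.381 in MN1 footprints, 0.392 to 0.523 in MN1 total mRNA, 0.0293 to 0.248 in neuron footprints and -0.175 to 0.52 in neuron total mRNA.

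The members and gene lists were chosen with earlier results of these data known. Described are all 10 members and, of each other list, its counts, its 3 highest genes in neuron total mRNA and the genes called among dates. Where most genes of a comparison were called (neurons against MN1 cells, footprints against total mRNA), listed genes are given by their counts only. The 10 genes most like the GABA synthesis set were taken among genes with a mean of at least 20 counts. Some of the genes that these rules name are not reported here. The exact intervals of the MN1 ratios and the floors of 3 reads cover counting error only, while edgeR's intervals include the spread between cultures.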

Additional observations from a re-analysis of the deposited data

How the results depend on the processing

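Sst and Npy footprints against WT changed sign without WT replicate 3: Sst 0.13 and 0.16, and Npy 0.053 and 0.0011, for hTDP-43 and hTDP-43 A315T. Without WT replicate 2 they were lowest, at -0.82 and -0.79 for Sst and -0.94 and -0.99 for Npy. Among dates, members called went from 0 to 4 in footprints and from 0 to 1 in total mRNA without a filter on low counts. Over the leave-outs these counts ran from 0 to 4 (4 without hTDP-43 A315T replicate 2) and from 0 to 3 (3 without hTDP-43 A315T replicate 3). The fits with these highest counts called 2.79% and 24.0% of all genes. All other counts of members called kept their value within 1.5 times under the alternatives run. The cause was not tested.

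Counts over all genes moved more. Without a filter the 6 genotype comparisons called 58, 78, 23, 50, 209 and 70 genes in place of 0, the dates 370 in place of 217 and 436 in place of 9, the interaction 86 in place of 0 and the MN1 transfections 59 in place of 0 and 52 in place of 2. DESeq2 called 63 and 60 genes among dates, 1 between mutant and WT total mRNA, and 2 and 6 among the MN1 transfections. Without single libraries, dates called 56 to 274 genes in footprints and 1 to 2888 in total mRNA, and mutant against WT total mRNA called 0 to 1573.

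With a block for the replicate number, the genotype comparisons called 5, 8, 15, 20, 35 and 0 genes, with 0 members in each, and the MN1 transfections 35 and 96, also with 0 members. The block changed no other call of a member. Dlx5, Vip and Dlx2 rested on 3 to 6 footprint reads in the shallowest libraries, so small differences in these genes were not detectable at this depth.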
